A study of Mus musculus with 23 samples.

Results

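The genes examined here are 10 transcripts that cells raise in response to fibroblast growth factor (FGF): the Sprouty genes Spry1, Spry2 and Spry4, the Sprouty-related genes Spred1 and Spred2, the phosphatase Dusp6, the membrane inhibitor Il17rd, and the PEA3 transcription factors Etv1, Etv4 and Etv5. They were chosen by name from the deposited table of 54347 genes, through their Ensembl identifiers without the version, and all 10 were found in the table and passed the filter on low counts in each fit. The rule goes by name and uses no measured value, but the list was drawn up with earlier results of these data known.

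FGF receptors on the cell surface activate RAS, which starts a relay of kinases from RAF through MEK to ERK. Active ERK raises the transcription of the PEA3 factors and, as negative feedback, of Sprouty, Spred, Dusp6 and Il17rd proteins, each of which damps the pathway at another step. In the mouse incisor, which grows throughout life, FGFs made by the mesenchyme signal to the epithelium of the cervical loop, and the Sprouty genes are known for limiting that signal.

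The cells came from the labial cervical loop of the lower incisor of mice at postnatal day 2, the epithelial fold that holds the dental epithelial stem cells. All mice were of the Sox2-GFP line, in which the endogenous Sox2 promoter drives green fluorescent protein, and the labels give no other allele, strain or treatment. Fluorescence sorting split the cells into a Sox2-positive fraction, labelled as dental epithelial stem cells, and a Sox2-negative fraction, and libraries were made by Smart-seq2. There were 6 Sox2-negative and 6 Sox2-positive libraries in batch A, and 4 Sox2-negative and 7 Sox2-positive libraries in batch B. A batch is, per the labels, an experiment on its own day with its own mice. The labels do not say whether the libraries of a batch came from different mice, so n counts libraries and the p-values measure only the spread between these libraries, which may be technical. The Sox2-negative cells are everything else that the dissection held, with no further gate given.

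Library totals ranged from 2.31 to 9.54 megacounts of estimated counts with a median of 4.83, and a level of 3 counts corresponded to between 0.314 and 1.30 CPM (counts relative to the scaled library total). That floor reflects counting error alone, because the protocol tags no molecules and reads can be copies of each other. Sox2 itself averaged 0.044 ± 0.107 CPM (SD, n = 6) in batch A Sox2-negative and 7.27 ± 4.41 CPM (n = 6) in batch A Sox2-positive libraries, and 0.297 ± 0.594 (n = 4) and 16.4 ± 2.91 CPM (n = 7) in batch B. The labelled epithelial identity was checked on 10 epithelial markers, whose summed level ran from 3821 to 4144 CPM in batch A and from 4007 to 6153 CPM in batch B Sox2-positive libraries, against 149.9 to 259 CPM in batch A and 361 to 416 CPM in batch B Sox2-negative libraries. The 7 ameloblast markers, which are also epithelial, went the other way. In batch A they summed to 747 to 940 CPM in Sox2-negative and 293 to 349 CPM in Sox2-positive libraries. In batch B they summed to 596 to 712 CPM and 9.8 to 17.3 CPM. Summed mesenchymal markers stood at 11235 to 14377 CPM in Sox2-negative and at 709.6 to 1939 CPM in Sox2-positive libraries, where Twist1 was at 0. Glial markers summed to 1069 to 1286 CPM in batch A Sox2-positive libraries and to 68.6 to 99.2 CPM in those of batch B, and the erythroid markers of the Sox2-negative cells went from 983 to 1175 CPM in batch A to 53603 to 62032 CPM in batch B. Batch B libraries 1 and 2 stood apart in both populations: 23720 and 22831 genes had at least 1 count in these Sox2-negative libraries against 20312 and 20520 in the other two, and 20809 and 21110 in these Sox2-positive libraries against 17765 to 19859 in the other five. Results whose call or direction turns on them are also given without them. Orders of levels per kb were taken with all libraries. In sorted bulk cells, fewer cells of a type and less RNA per cell cannot be told apart.

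All 10 genes are annotated as protein coding. On the GRCm38 assembly (GENCODE release M21), Spry1 lies at chr3:37639947-37644598 on the plus strand and Spry2 at chr14:105891947-105896819 on the minus strand. Spred1 lies at chr2:117121374-117182279 and Spred2 at chr11:19924375-20024026, both on the plus strand. Dusp6 is at chr10:99263231-99267489 and Il17rd at chr14:27038941-27107286, both on the plus strand. Of the PEA3 factors, Etv1 is at chr12:38779380-38870484 on the plus strand, Etv4 at chr11:101769742-101785371 on the minus strand and Etv5 at chr16:22381309-22439719 on the minus strand. Of the 10 genes, 7 share 31-base words with other genes, and their counts are uncertain to that extent. The largest shares were these: 30.3% of the 31-base words of Etv5 also occur in Gm4798, 23.1% of those of Spry1 in the antisense transcript Gm42922, 9.31% of those of Etv1 in Gm5454 and 4.20% of those of Spred2 in Gm14612. These 4 partner genes reached at most 1.07 CPM in any library. The shares were 1.37% for Il17rd, 0.878% for Spry2 and 0.252% for Spred1.

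Spry2, Dusp6, Etv1 and Etv5, which were higher in the Sox2-positive cells of both batches, each have 250 bases upstream of a RefSeq start that hold no annotated exon, and these are shown because ERK acts on such genes through transcription factors. The sequences are RefSeq's on GRCm38.p6 and are written 5′ to 3′ on the gene's strand. Capitals mark matches to AGGAAG, the core letters of a PEA3-type ETS site, on either strand.
Spry2, chr14:105896820-105897069, minus strand: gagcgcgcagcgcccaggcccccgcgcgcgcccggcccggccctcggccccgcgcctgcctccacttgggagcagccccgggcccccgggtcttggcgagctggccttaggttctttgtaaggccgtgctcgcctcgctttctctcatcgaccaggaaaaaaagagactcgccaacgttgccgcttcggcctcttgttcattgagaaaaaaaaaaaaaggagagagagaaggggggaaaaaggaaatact
Dusp6, chr10:99262981-99263230, plus strand: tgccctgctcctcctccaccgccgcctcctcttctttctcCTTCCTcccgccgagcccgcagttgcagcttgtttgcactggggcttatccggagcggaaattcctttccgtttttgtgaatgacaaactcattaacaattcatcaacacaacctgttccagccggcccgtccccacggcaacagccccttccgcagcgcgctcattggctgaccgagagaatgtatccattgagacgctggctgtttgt
Etv1, chr12:38779832-38780081, plus strand: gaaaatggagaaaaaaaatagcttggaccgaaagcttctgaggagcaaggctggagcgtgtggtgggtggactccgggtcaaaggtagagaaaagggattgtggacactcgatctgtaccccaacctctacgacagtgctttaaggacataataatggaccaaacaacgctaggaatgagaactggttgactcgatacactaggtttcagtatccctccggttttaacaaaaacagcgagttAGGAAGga
Etv5, chr16:22438369-22438618, minus strand: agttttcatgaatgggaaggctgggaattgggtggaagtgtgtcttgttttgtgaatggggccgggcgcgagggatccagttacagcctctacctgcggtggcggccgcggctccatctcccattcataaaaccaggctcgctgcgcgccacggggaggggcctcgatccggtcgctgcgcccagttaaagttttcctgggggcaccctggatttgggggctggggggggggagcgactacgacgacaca

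The Dusp6 window held 1 match, on the minus strand, the Etv1 window 1 on the plus strand and the Spry2 and Etv5 windows none. Windows of the same length hold AGGAAG in 29.48% of 32851 RefSeq starts. None of the 4 windows held CCGGAAG (ETS, 6.91% of all windows; its last letters overlap those of AGGAAG only in part), TGANTCA (AP-1, 6.75%) or TGACGTCA (CRE, 1.55%), each searched on both strands. The Spry2 window was 62.4% G or C, that of Dusp6 56.4%, that of Etv1 46.4% and that of Etv5 62.0%, against a median of 52.4% over all windows. The Etv1 and Etv5 windows lie inside the gene bounds given above, upstream of an internal RefSeq start. The table had entries for 8 of the 10 genes. A match in these letters is a description of the window and not a binding site.

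Sox2-positive and Sox2-negative cells differed in most of the 10 genes, and not in 1 direction. In batch A, 5 genes were higher in Sox2-positive cells (Etv1, Dusp6, Etv4, Etv5 and Spry2), 2 were lower (Spry4 and Spred2) and 3 were not called at an adjusted p under 0.05 (edgeR's quasi-likelihood test, Benjamini-Hochberg over all genes tested). In batch B, 5 were higher (Etv1, Dusp6, Etv5, Spry2 and Spred1) and 3 lower (Spry4, Spred2 and Il17rd). A large share of all genes was called too: 43.4% in batch A, with 19.3% higher and 24.2% lower, and 54.7% in batch B, with 27.1% higher and 27.6% lower. The 10 genes thus had 5 of 10 higher in each batch, and their calls on the lower side, 2 and 3 of 10, were near the share of all genes. The median log2 fold change of the 10 genes was 0.98 in batch A and 0.74 in batch B, against -0.04 and 0.01 over all genes tested. With both batches in 1 fit and batch as a term, 6 were higher and 2 lower, beside 57.5% called over all genes (24.9% higher, 32.5% lower). Libraries of the 2 populations did not overlap for 5 genes on the higher and 2 on the lower side in each batch, against 28.1% of all genes in batch A (12.4% higher, 15.7% lower) and 38.1% in batch B (17.4% higher, 20.7% lower).

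**Figure D1:**
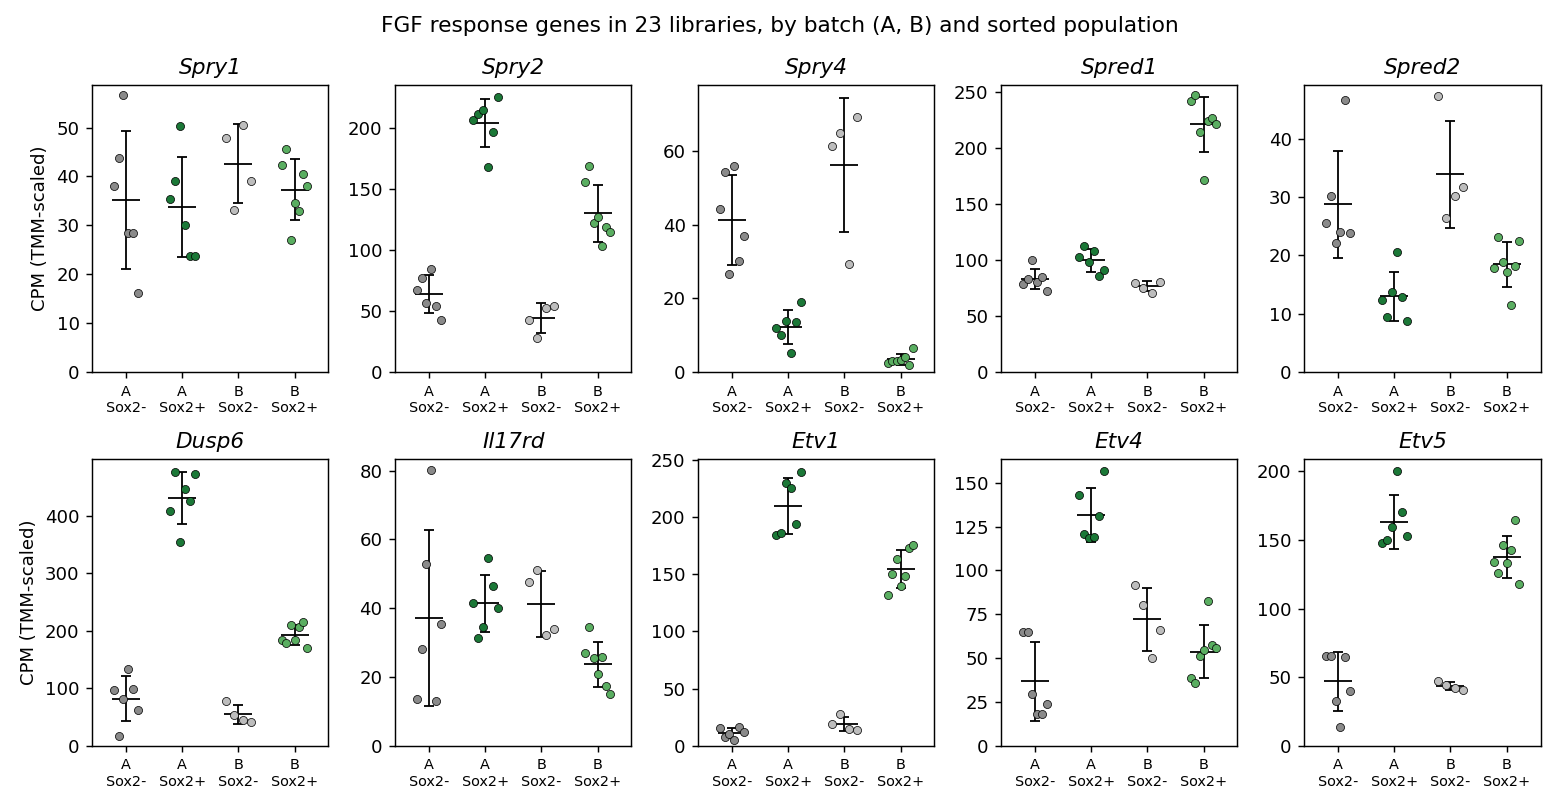
Level of each gene in every library, in CPM on a linear axis from 0, for Sox2-negative (grey) and Sox2-positive (green) cells of batches A and B. Points are libraries, horizontal marks are group means and bars are SDs (n = 6, 6, 4 and 7). Etv1, Dusp6, Etv5 and Spry2 sit higher in both Sox2-positive groups, while Spry4 falls from a mean of 41.4 to 12.3 CPM in batch A and from 56.1 to 3.43 CPM in batch B.

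The Sprouty genes, which encode inhibitors that act between the receptor and RAF, took 3 different courses. Spry2 rose 3.22-fold in batch A and 3.09-fold in batch B, Spry4 fell, and Spry1 was not called. Spry2 ran from 43.0 through a median of 62.1 to 84.2 CPM in batch A Sox2-negative libraries and from 168 through 209 to 226 CPM in Sox2-positive libraries. The lowest Sox2-positive library thus had 168 CPM and the highest Sox2-negative one 84.2. The log2 fold change of Spry2 was 1.69 ± 0.16 (SE; edgeR adjusted p = 4.92e-07). In batch B the 4 Sox2-negative libraries had 42.6, 27.6, 52.8 and 54.0 CPM, and the 7 Sox2-positive libraries ran from 104 through 122 to 169 CPM. These groups did not overlap either, and the highest Sox2-positive values, 156 and 169 CPM, belonged to libraries 1 and 2. The log2 fold change there was 1.63 ± 0.20 (edgeR adjusted p = 4.11e-06), and 1.17 ± 0.15 without libraries 1 and 2 of both populations. The population by batch interaction, the difference in batch B minus that in batch A, was -0.12 ± 0.25 on the log2 scale (edgeR adjusted p = 0.864).

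Spry4, annotated at chr18:38586247-38601415 on the minus strand, went the other way. Batch A Sox2-negative libraries had from 26.6 through a median of 40.5 to 56.0 CPM of Spry4, and Sox2-positive libraries from 5.22 through 12.7 to 19.1 CPM. Every Sox2-positive library was below every Sox2-negative one, with a log2 fold change of -1.74 ± 0.34 (edgeR adjusted p = 0.000587). In batch B the Sox2-negative libraries had 61.2, 64.8, 29.4 and 69.2 CPM, and the Sox2-positive libraries from 1.82 through 3.07 to 6.48 CPM. The populations were again apart, although library 3 of the Sox2-negative cells had less than its neighbours, and the log2 fold change was -4.02 ± 0.32 (edgeR adjusted p = 2.92e-08). The deficit was deeper in batch B by an interaction of -2.33 ± 0.46 (edgeR adjusted p = 0.00182). Without batch B libraries 1 and 2 this interaction was -2.03 ± 0.58 and its adjusted p 0.0681, in a range from 3.58e-05 to 0.0681 over all alternatives run for it.

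Spry1 had a mean of 35.2 ± 14.1 CPM in batch A Sox2-negative and 33.8 ± 10.2 CPM in Sox2-positive libraries, and 42.6 ± 7.99 and 37.3 ± 6.30 CPM in batch B. Its ranges overlapped in both batches, from 16.1 to 56.7 CPM against 23.7 to 50.4 CPM in batch A and from 33.2 to 50.6 CPM against 27.0 to 45.6 CPM in batch B. The log2 fold changes were -0.05 ± 0.31 in batch A and -0.12 ± 0.19 in batch B (edgeR adjusted p = 0.906 and 0.606), and the SEs set how small a change these libraries could show.

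**Figure D2:**
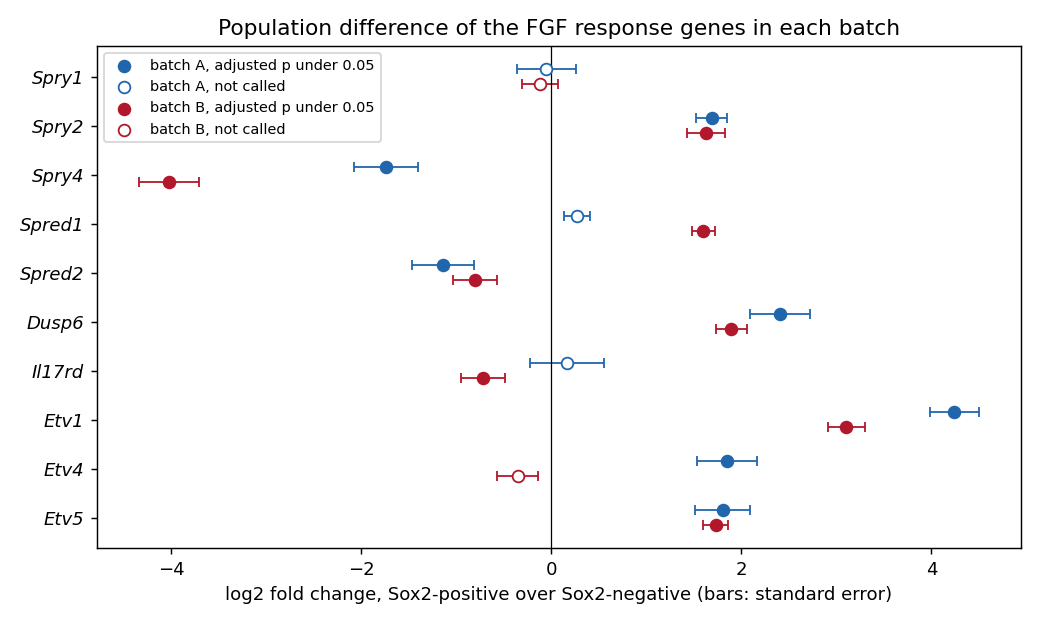
Log2 fold change of Sox2-positive over Sox2-negative cells for each gene, with standard errors, in batch A (blue) and batch B (red). Filled points had an adjusted p under 0.05 and open points did not. Etv1 lies farthest to the right in both batches (4.24 and 3.10), Spry4 farthest to the left (-1.74 and -4.02), and Spred1 and Etv4 are called in 1 batch each.

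The Spred genes encode membrane proteins that hold back RAS through neurofibromin. Spred1 was higher in Sox2-positive cells in batch B and not called in batch A, and Spred2 was lower in both. In batch A, Spred1 ran from 72.3 through a median of 82.0 to 99.7 CPM in Sox2-negative libraries and from 85.3 through 100.4 to 113 CPM in Sox2-positive libraries. These ranges overlapped, and the log2 fold change was 0.27 ± 0.14 (edgeR adjusted p = 0.13). Scaling by total counts in place of TMM gave 0.35 with an adjusted p of 0.0482, in a range from 0.0482 to 0.217 over the alternatives. Batch B Sox2-negative libraries had 79.8, 74.9, 70.9 and 80.7 CPM, and the Sox2-positive libraries from 171 through 224 to 247 CPM. The groups were far apart, with a log2 fold change of 1.60 ± 0.12 (edgeR adjusted p = 2.05e-08). The interaction of 1.27 ± 0.17 had an adjusted p of 1.41e-05 and was 1.21 ± 0.21 without batch B libraries 1 and 2.

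Spred2 ranged from 22.2 through a median of 24.8 to 46.6 CPM in batch A Sox2-negative libraries, and from 8.76 through 12.6 to 20.6 CPM in Sox2-positive libraries. All Sox2-positive libraries were below the Sox2-negative ones, and the log2 fold change was -1.14 ± 0.33 (edgeR adjusted p = 0.0105). With no filter on low counts the adjusted p was 0.0505, the highest over the alternatives, whose lowest was 0.00101. Batch B Sox2-negative libraries had 47.3, 26.4, 30.2 and 31.8 CPM, and the Sox2-positive libraries from 11.5 through 18.2 to 23.2 CPM. There too the groups did not overlap, and library 1 was the highest. The log2 fold change of -0.80 ± 0.23 (edgeR adjusted p = 0.0085) was no longer called without Sox2-negative library 1 (-0.61, adjusted p = 0.0511) or without libraries 1 and 2 of both populations (-0.78, adjusted p = 0.0579), in a range from 0.00105 to 0.0858. The interaction of Spred2 was 0.27 ± 0.39 (edgeR adjusted p = 0.782).

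Dusp6 encodes the cytoplasmic phosphatase that removes the activating phosphates from ERK, and it rose 5.29-fold in batch A and 3.72-fold in batch B. It ran from 355 through a median of 436 to 477 CPM in batch A Sox2-positive libraries. The Sox2-negative libraries of batch A were uneven, with 96.9, 17.1, 82.0, 133, 99.6 and 62.3 CPM in libraries 1 to 6. Library 2 was the lowest, but every Sox2-positive library was above all of them, and the log2 fold change was 2.40 ± 0.31 (edgeR adjusted p = 1.4e-05). The Sox2-negative libraries of batch B had 77.7, 54.0, 44.2 and 42.1 CPM and the Sox2-positive ones from 170 through 184 to 216 CPM. The groups were apart, with a log2 fold change of 1.89 ± 0.16 (edgeR adjusted p = 9.81e-08), and the interaction was -0.58 ± 0.37 (edgeR adjusted p = 0.424).

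Il17rd encodes Sef, a transmembrane protein that restrains FGF receptor and ERK signalling. In batch A its Sox2-negative libraries were the most uneven of any member and group, with a coefficient of variation of 69.1%: libraries 1 to 6 had 13.7, 28.0, 52.7, 80.0, 13.0 and 35.5 CPM. The Sox2-positive libraries ran from 31.4 through a median of 40.8 to 54.6 CPM and lay inside that span, with a log2 fold change of 0.16 ± 0.39 (edgeR adjusted p = 0.761). In batch B the Sox2-negative libraries had 47.7, 51.2, 32.3 and 34.0 CPM and the Sox2-positive libraries from 15.1 through 25.5 to 34.5 CPM. The 2 groups touched, since the highest Sox2-positive library exceeded the 2 lowest Sox2-negative ones. The log2 fold change of -0.72 ± 0.23 was called (edgeR adjusted p = 0.016), but not without Sox2-negative library 1 (adjusted p = 0.0503) or 2 (0.0639), in the model of all 4 groups (0.0706) or without both libraries in both populations (0.104), in a range from 0.00406 to 0.104. The interaction was -0.95 ± 0.48 (edgeR adjusted p = 0.28).

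The PEA3 factors are ETS transcription factors that carry the ERK signal to its target genes. Etv1 and Etv5 were higher in Sox2-positive cells of both batches, and Etv4 in batch A. Etv1 had the largest rise of the 10 genes in each batch. Its batch A Sox2-negative libraries ran from 4.97 through a median of 11.2 to 16.8 CPM and its Sox2-positive libraries from 184 through 210 to 239 CPM. No library came near the other group, and the log2 fold change of 4.24 ± 0.25 corresponds to 18.9-fold (edgeR adjusted p = 2.31e-09). The Sox2-negative libraries of batch B had 19.5, 27.5, 14.5 and 14.1 CPM and the Sox2-positive ones from 132 through 150.02 to 176 CPM. The log2 fold change was 3.10 ± 0.19, or 8.58-fold (edgeR adjusted p = 1.57e-09). The interaction of -1.21 ± 0.30 (edgeR adjusted p = 0.012) was -0.77 with an adjusted p of 0.301 without batch B libraries 1 and 2, whose Sox2-negative members had the most Etv1. It was also not called without Sox2-negative library 2 of batch B alone (-0.97, adjusted p = 0.0544) or with limma-voom (-1.39, adjusted p = 0.0602), in a range from 0.00197 to 0.301.

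Etv5 had 65.7, 65.2, 32.4, 13.9, 64.9 and 39.8 CPM in batch A Sox2-negative libraries 1 to 6, and from 148 through a median of 156 to 199.97 CPM in the Sox2-positive libraries. Library 4 was the lowest of the first group, and none reached the second. In batch B the Sox2-negative libraries were close together at 47.2, 44.3, 42.4 and 40.8 CPM, and the Sox2-positive ones ran from 118 through 134 to 164 CPM. The groups did not overlap in either batch. The log2 fold changes were 1.80 ± 0.29 in batch A (edgeR adjusted p = 0.000103) and 1.73 ± 0.13 in batch B (1.93e-08), with an interaction of -0.14 ± 0.33 (0.886).

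Etv4 behaved differently in the 2 batches. In batch A the Sox2-negative libraries had 65.1, 65.2, 29.3, 18.3, 18.3 and 23.9 CPM, and the Sox2-positive libraries ran from 118 through a median of 126 to 157 CPM. Sox2-negative libraries 1 and 2 were above the other four, but all 6 were below the Sox2-positive ones, with a log2 fold change of 1.85 ± 0.31 (edgeR adjusted p = 0.000183). In batch B the Sox2-negative libraries had 91.5, 80.6, 50.1 and 66.1 CPM and the Sox2-positive libraries from 35.9 through 54.5 to 82.5 CPM. These groups overlapped. Libraries 1 and 2 were the highest of the Sox2-negative and the lowest of the Sox2-positive cells, with 38.6 and 35.9 CPM in the latter. The log2 fold change was -0.36 ± 0.22 (edgeR adjusted p = 0.174), and 0.08 ± 0.23 without libraries 1 and 2. The interaction was -2.27 ± 0.40 (edgeR adjusted p = 0.000563), and -1.80 ± 0.46 with an adjusted p of 0.0364 without them. The call over both batches (0.74 ± 0.31, edgeR adjusted p = 0.0422) was lost on leaving out batch A Sox2-negative library 2, 3, 4, 5 or 6 or Sox2-positive library 4, with adjusted p from 0.05 to 0.0863, while it was 1.26 with an adjusted p of 0.00102, the lowest over its alternatives, without batch B libraries 1 and 2.

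To set the genes against each other, CPM was divided by the length of the longest annotated transcript, in kilobases. The order of the levels per kb in batch A Sox2-positive cells was Dusp6 (154 ± 16.3 CPM per kb, SD, n = 6), Spry2 (97.8 ± 9.5), Etv4 (54.9 ± 6.48), Etv5 (41.1 ± 4.96), Etv1 (31.9 ± 3.70), Spred1 (16.6 ± 1.73), Spry1 (12.2 ± 3.69), Il17rd (5.00 ± 1.0), Spred2 (2.92 ± 0.951) and Spry4 (2.59 ± 0.968). Each gene differed from the next in this order by more than the larger of their SDs, except Spred2 from Spry4. In batch B Sox2-positive cells Dusp6 (68.9 ± 6.33, n = 7) and Spry2 (62.4 ± 11.3) lay within 1 SD of each other, and so did Spred1 (36.8 ± 4.13) and Etv5 (34.7 ± 3.79), and Etv1 (23.5 ± 2.55) and Etv4 (22.4 ± 6.39). Spry1 (13.5 ± 2.27), Spred2 (4.15 ± 0.866), Il17rd (2.86 ± 0.791) and Spry4 (0.722 ± 0.318) followed, each apart from the next by more than its SD. The order depends on the length used. With the union of exons, Spry2 (62.4 ± 11.3) came before Dusp6 (61.5 ± 5.65) in batch B Sox2-positive cells, and Etv5 (33.6 ± 3.675) before Spred1 (32.6 ± 3.66). Both pairs still lay within 1 SD. Etv1 fell to 11.6 ± 1.26 CPM per kb there, below Etv4 (17.3 ± 4.93) and within 1 SD of Spry1 (12.8 ± 2.17). In batch A Sox2-positive cells Etv1 then had 15.8 ± 1.83 CPM per kb, within 1 SD of Spred1 (14.7 ± 1.53). The top of the order in Sox2-negative cells was Spry2 (30.5 ± 7.42, n = 6), level with Dusp6 (29.3 ± 14.1), in batch A, and Etv4 (30.1 ± 7.51, n = 4) followed by Spry2 (21.2 ± 5.86) and Dusp6 (19.5 ± 5.84) in batch B. Etv1 was last in both, at 1.69 ± 0.690 and 2.87 ± 0.945 CPM per kb. The orders in batch B were not taken again without libraries 1 and 2, and the order of close genes may turn on them. Among Sox2-positive libraries these had the most Spry2 (156 and 169 CPM) and the least Etv4 (38.6 and 35.9 CPM). Among Sox2-negative libraries they had the least Spry2 (42.6 and 27.6 CPM) and the most Etv4 (91.5 and 80.6 CPM).

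The makeup of the 2 families therefore differed between the sorted populations, which is a description of the levels above. In Sox2-negative cells Spry4 made up 16.9% ± 4.05 of the summed Sprouty level per kb in batch A and 24.9% ± 9.38 of it in batch B, against 2.26% ± 0.736 and 0.985% ± 0.512 in Sox2-positive cells. Spry2 made up 58.8% ± 4.52 and 43.2% ± 7.51 in Sox2-negative cells and 87.0% ± 2.38 and 81.3% ± 2.33 in Sox2-positive cells. The ratio of Spred1 to Spred2 per kb was 2.28 ± 0.646 and 1.74 ± 0.360 in Sox2-negative cells and 6.10 ± 1.82 and 9.24 ± 2.5 in Sox2-positive cells. Of the summed PEA3 level, Etv1 made up 6.51% ± 2.53 and 6.50% ± 1.44 in Sox2-negative and 24.9% ± 2.02 and 29.3% ± 3.17 in Sox2-positive cells. In batch A Etv4 made up 52.4% ± 13.2 in Sox2-negative and 42.9% ± 4.06 in Sox2-positive cells, and Etv5 41.1% ± 11.3 and 32.2% ± 3.42. In batch B Etv4 had the largest PEA3 share in Sox2-negative cells, 67.9% ± 4.29. In batch B Sox2-positive cells Etv5 had 43.2% ± 3.92 and Etv4, at 27.5% ± 5.12, was within 1 SD of Etv1. The length used matters for these shares. With the union of exons in place of the longest transcript, Etv1 made up 3.85% and 4.00% in Sox2-negative and 16.1% and 18.7% in Sox2-positive cells. In batch A Sox2-positive cells Etv4 (43.25% ± 4.27) and Etv5 (40.6% ± 3.99) then lay within 1 SD of each other. Without batch B libraries 1 and 2, the Sox2-positive shares were 29.5% ± 4.52 for Etv4, 28.8% ± 3.40 for Etv1 and 41.7% ± 3.52 for Etv5 (n = 5), and Spry4 made up 19.5% ± 10.1 of the Sprouty level in Sox2-negative (n = 2) and 1.14% ± 0.532 in Sox2-positive cells (n = 5).

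**Figure D3:**
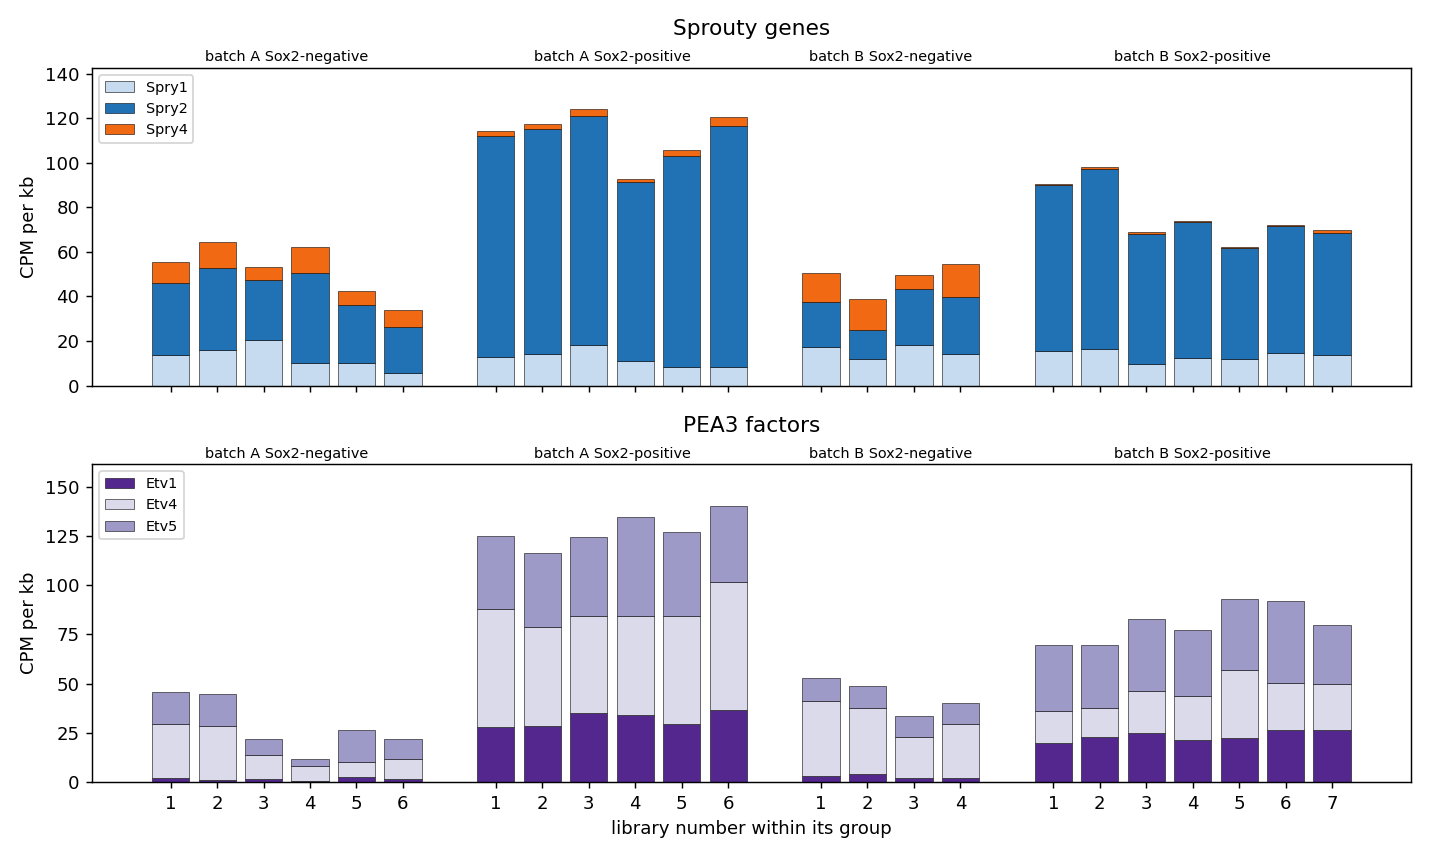
Level per kb of transcript (CPM per kb, stacked from 0) of the Sprouty genes (upper panel) and the PEA3 factors (lower panel) in each library, by library number within its group. Spry2 makes up most of each Sox2-positive bar while Spry4 is a thin cap, and Etv1 is a thin base in Sox2-negative libraries and 24.9% to 29.3% of the mean PEA3 level in Sox2-positive ones.

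Within the Sox2-positive cells, 5 of the 10 genes differed between the batches, 1 higher and 4 lower in batch B, where 10.4% of all genes were called (4.85% higher, 5.54% lower). Spred1 was higher in batch B by 1.15 ± 0.11 on the log2 scale (edgeR adjusted p = 2.43e-08). Spry4 was lower by 1.89 ± 0.32 (log2 difference -1.89, edgeR adjusted p = 0.000178), Etv4 at -1.30 ± 0.27 (0.00135), Dusp6 at -1.16 ± 0.24 (0.00163) and Spry2 at -0.65 ± 0.16 (0.00839). The libraries of the 2 batches did not overlap for Spred1, Etv4, Dusp6 and Etv1, beside 8.56% of all genes (3.9% higher, 4.66% lower), and touched for Spry2 and Spry4. All 5 calls held without batch B libraries 1 and 2. The difference of Etv1 was -0.44 ± 0.19 (edgeR adjusted p = 0.149), that of Etv5 -0.25 ± 0.21 (0.582), that of Il17rd -0.80 ± 0.32 (0.123), that of Spred2 0.51 ± 0.26 (0.258) and that of Spry1 0.15 ± 0.24 (0.824).

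Other measures moved with this batch difference. From batch A to batch B Sox2-positive libraries, the median sum of the 6 glial and neural crest markers went from 1108 to 80.4 CPM, with all 6 markers called lower and none at 0 throughout. That of the 7 ameloblast markers went from 325 to 12.2 CPM and that of the 10 mesenchymal markers from 1581 to 806 CPM. The median sum rose from 3947 to 5833 CPM for the 10 epithelial markers and from 77.1 to 306 CPM for the 6 pericyte and muscle markers. Their part in the differences of the FGF response genes was not tested.

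Within the Sox2-negative cells, 2 of the 10 genes were called between batches, both higher in batch B, beside 11.2% of all genes (5.85% higher, 5.35% lower), and no gene of the 10 had groups that did not overlap (8.87% of all genes: 4.56% higher, 4.31% lower). Etv4 differed by 0.97 ± 0.30 (edgeR adjusted p = 0.0372) and Etv1 by 0.76 ± 0.23 (0.0332). Neither was called without batch B libraries 1 and 2 (adjusted p = 0.373 and 0.556, the highest over the alternatives, whose lowest were 0.00724 and 0.00976), and single libraries decided both calls. The call of Etv1 was lost without Sox2-negative library 2, 3 or 4 of batch A or 1 or 2 of batch B, and that of Etv4 without library 3, 4, 5 or 6 of batch A or 1, 2 or 4 of batch B. Dusp6 differed by -0.58 ± 0.29 (edgeR adjusted p = 0.211), and by -0.80 with an adjusted p of 0.0047 without batch A Sox2-negative library 2, whose Dusp6 was low; the alternatives ranged from 0.0047 to 0.665. Spry2 differed by -0.53 ± 0.19 (edgeR adjusted p = 0.0792) and was called with DESeq2 (-0.57, adjusted p = 0.0296), with total-count scaling (-0.67, 0.0269) and without batch A Sox2-negative library 6 (-0.60, 0.0365), in a range from 0.0269 to 0.584. Over the same libraries 5 of 6 erythroid markers rose in batch B, and 5 of 10 epithelial markers rose, with their median sum going from 215 to 398 CPM. All 6 endothelial markers fell, from a median sum of 734 to 210.3 CPM, and 4 of 7 leukocyte markers fell, from 3146 to 562 CPM. Their part in these differences was not tested. Total-count scaling moved the median log2 difference of all genes by -0.15 and turned the split of calls from 1005 higher and 919 lower to 661 and 1388. Among Sox2-positive cells it turned 833 higher and 952 lower into 666 and 1214.

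The population difference itself differed between batches for 4 of the 10 genes, beside 7.04% of all genes (2.82% higher, 4.22% lower): Spred1 on the higher side, and Etv4, Spry4 and Etv1 on the lower side, with the values above. Without batch B libraries 1 and 2, Spred1 and Etv4 were the 2 that were called.

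Further genes of the pathway were taken from lists by role. Of 12 FGF ligands, 5 passed the filter in batch A and 8 in batch B. In batch A, 1 was higher and 2 lower in Sox2-positive cells, and in batch B none was higher and 5 were lower; over all genes tested 19.3% were higher and 24.2% lower in batch A, against 27.1% and 27.6% in batch B. Fgf3 and Fgf10, ligands of the dental mesenchyme, were lower in both. Fgf3 averaged 24.3 ± 10.4 CPM (n = 6) and 26.8 ± 7.47 CPM (n = 4) in Sox2-negative cells and was at 0 in every Sox2-positive library, under the floor of 3 counts (edgeR adjusted p = 2.78e-06 and 3.9e-07). Fgf10 averaged 30.5 ± 21.5 and 87.7 ± 23.1 CPM in Sox2-negative cells and 0.06 ± 0.09 and 0.02 ± 0.06 CPM, also under the floor, in Sox2-positive cells. Fgf9, an epithelial ligand named after its values were seen, was higher in batch A at 41.2 ± 12.7 against 4.30 ± 5.27 CPM (edgeR adjusted p = 0.00362) and stood at 12.6 ± 3.09 against 8.04 ± 6.86 CPM in batch B (0.2).

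Of 10 FGF receptors and co-receptors, 8 were tested in each batch. In batch A 4 were higher and 2 lower, and in batch B 5 were higher and 2 lower, with median log2 fold changes of 0.52 and 0.41. The 2 of 8 that were lower were near the 24.2% and 27.6% of all genes, and the 4 and 5 of 8 that were higher stood beside 19.3% and 27.1%. The receptor gene Fgfr1 was higher in both, from 336 ± 11.4 to 767 ± 86.1 CPM in batch A and from 529 ± 58.4 to 885 ± 117 CPM in batch B, and so were the proteoglycan genes Gpc4 (log2 fold change 1.44 ± 0.21 and 0.54 ± 0.17) and Sdc4 (0.62 ± 0.13 and 0.92 ± 0.12). Fgfr3 was lower in both, at -1.65 ± 0.31 and -1.31 ± 0.29 (edgeR adjusted p = 0.000398 and 0.0014). Fgfr2, named after its values were seen, was lower in batch A (-1.32 ± 0.18, edgeR adjusted p = 1.86e-05) and not called in batch B (-0.12 ± 0.14, 0.46), with an interaction of 1.13 ± 0.23 (0.00229).

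All 18 genes of the RAS to ERK relay were tested. In batch A 3 were higher and 1 lower, and in batch B 5 were higher and 5 lower. The RAS genes Nras and Hras and the MEK gene Map2k1 were higher in both batches, with log2 fold changes of 1.34 ± 0.16, 1.18 ± 0.13 and 1.23 ± 0.22 in batch A, against 0.92 ± 0.14, 0.70 ± 0.20 and 0.70 ± 0.15 in batch B. Mapk3, which encodes ERK1, was lower at -1.18 ± 0.15 and -0.94 ± 0.17. The share called in batch A, 4 of 18, was below the 43.4% of all genes, and that in batch B, 10 of 18, was near the 54.7%.

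Of 18 other listed regulators of RAS and ERK signalling that were tested, 2 were higher and 5 lower in batch A, and 2 were higher and 7 lower in batch B. The number called, 7 and 9 of 18, was near or below the 43.4% and 54.7% of all genes. Their median log2 fold changes were -0.57 and -0.76. Dusp1, an immediate early phosphatase of ERK, p38 and JNK, was higher in both batches at 1.69 ± 0.19 and 0.62 ± 0.21. Flrt2 (-2.69 ± 0.51 and -1.58 ± 0.22), Lgals1 (-1.64 ± 0.11 and -1.51 ± 0.15) and Errfi1, an inhibitor of the EGF receptor (-1.84 ± 0.30 and -1.10 ± 0.20), were lower in both. Dusp1 also fell from batch A to batch B in both populations. The log2 difference was -2.68 ± 0.19 in Sox2-positive cells (edgeR adjusted p = 3.63e-11) and -1.54 ± 0.22 in Sox2-negative cells (2.48e-05).

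The other ERK-responsive transcripts, mostly immediate early genes that many stimuli raise, were counted in each batch. In batch A 8 of 15 were higher and 4 lower in Sox2-positive cells, and in batch B 2 of 14 were higher and 9 lower, with median log2 fold changes of 0.74 and -0.82. Of all genes, 19.3% were higher and 24.2% lower in batch A, against 27.1% and 27.6% in batch B. Myc and Phlda1 were higher in both, Myc at 1.80 ± 0.25 and 2.23 ± 0.16, and Fosl2, Ier3 and Mcl1 were lower in both. Fos, Egr1 and Junb were called in opposite directions. Fos averaged 219 ± 41.7 CPM in Sox2-negative and 664 ± 70.5 CPM in Sox2-positive cells of batch A, and 22.3 ± 10.4 and 5.57 ± 2.48 CPM in batch B. Its interaction was -3.66 ± 0.33 (edgeR adjusted p = 3.14e-08), and those of Egr1 and Junb were -2.48 ± 0.49 (0.00172) and -1.73 ± 0.33 (0.00109). Between batches within Sox2-positive cells, 10 of 15 were lower in batch B and 1 higher, against 5.54% and 4.85% of all genes, and Fos differed by -6.95 ± 0.26. Within Sox2-negative cells, 4 of 15 were lower in batch B and none higher, against 5.35% and 5.85% of all genes. Fos differed there by -3.30 ± 0.27. In those cells Dusp6, Spry2 and Spry4 were not called between batches, and Etv4 was called higher in batch B. In Sox2-positive cells these transcripts thus moved with the batch difference of Dusp6, Etv4, Spry2 and Spry4, and their part in it was not tested.

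**Figure D4:**
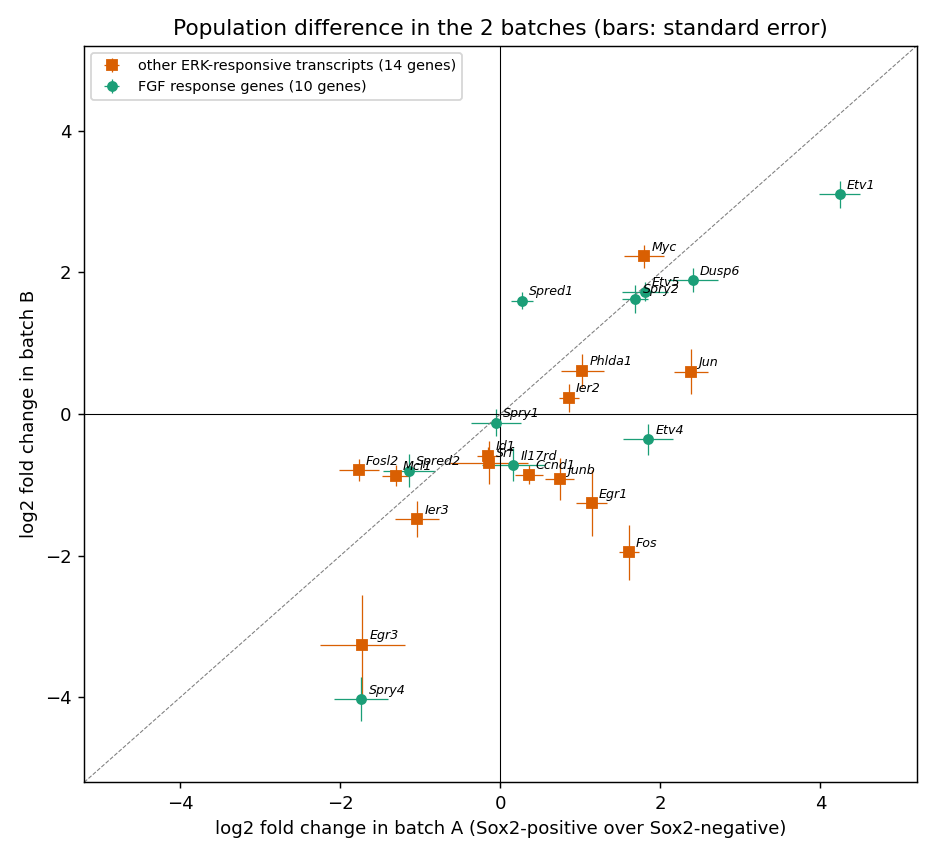
Log2 fold change of Sox2-positive over Sox2-negative cells in batch A (horizontal) and batch B (vertical) for the 10 FGF response genes (circles) and 14 other ERK-responsive transcripts (squares), with standard errors; the dashed line marks equal change. Spry2, Etv5 and Dusp6 lie near the line and Spred1 above it. Etv4, Spry4, Etv1 (4.24 and 3.10) and Il17rd lie below it, and Fos lies at 1.61 and -1.96.

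Of the other ETS factors, 15 were tested in batch A, with 1 higher and 7 lower, and 17 in batch B, with 4 higher and 5 lower. The batch B counts were near the 27.1% and 27.6% of all genes, and those of batch A stood beside 19.3% and 24.2%. Spi1, a factor of blood cells, averaged 39.4 ± 12.7 and 12.2 ± 4.16 CPM in Sox2-negative cells and was at 0 in all Sox2-positive libraries, and Fli1, a factor of endothelium and blood, averaged 69.1 ± 11.8 and 25.8 ± 11.5 CPM against 0.13 ± 0.31 and 0 CPM, under the floor. Ets1 fell by log2 fold changes of -2.51 ± 0.21 and -4.77 ± 0.48. Ets2 was called in opposite directions, at -0.60 ± 0.22 in batch A and 0.43 ± 0.15 in batch B, with an interaction of 0.96 ± 0.28 (edgeR adjusted p = 0.0331). Summed leukocyte and endothelial markers were also low in Sox2-positive cells, at 4.32 to 14.7 CPM and 0.54 to 5.82 CPM, and their part in these differences was not tested.

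Likeness to each gene was measured over the 4 group means of log2 CPM, each profile centred on its own mean, as the root mean square distance among 11092 genes with a mean of at least 10 CPM. With 4 points that share libraries this is a description only. The genes most like Spry2 were Tagap1 (0.0344), Tyms (0.0501) and Ptp4a1 (0.0648), and those most like Dusp6 were Pacsin2 (0.145), Col18a1 (0.149) and B3galt1 (0.162). Etv1 was most like Large2 (0.125), Gm10163 (0.131) and Tbx1 (0.133), Etv4 most like Ndrg2 (0.0755), Idi1 (0.0823) and Asrgl1 (0.166), and Etv5 most like Btbd19 (0.0347), Tmem115 (0.0405) and Sgta (0.0573). Spry4 was most like Robo2 (0.108), Cdh2 (0.114) and Nr4a2 (0.124), and Spred1 most like Fam13c (0.0745), Zfat (0.0789) and Rpusd3 (0.127). For Spry1 they were Ddx10, Oaz1 and Ncor1 (0.0254 to 0.0284), for Spred2 Pcgf3, Fam193a and Chd3 (0.0190 to 0.0307) and for Il17rd Fam129b, Jund and Unc13a (0.0513 to 0.0675). Among the 10 genes the closest profiles were those of Spry2 and Etv5 (0.273), Spry2 and Dusp6 (0.349), Spry1 and Il17rd (0.355) and Dusp6 and Etv5 (0.422).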

How the data were processed

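RNA was measured in 23 Smart-seq2 libraries of sorted cells. The authors deposited estimated counts per gene (expected counts), not scaled to a common depth; the submitters' processing notes name FastQC, Trimmomatic, Salmon and the mm10 build, with no versions. The annotation, the strand setting and how transcripts were summed to genes are not given in the sources used here. Groups came from the labels' batch and population. Symbols came from GENCODE M21 by Ensembl identifier without version (99.53% matched), and positions and lengths from M21; promoter sequences are RefSeq's.

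Counts were rounded to whole numbers and tested with edgeR 4.0.16 in R 4.3.3: TMM scaling, filterByExpr with a minimum count of 10, the quasi-likelihood F test, two-sided, Benjamini-Hochberg over all genes tested, called at an adjusted p under 0.05. Each batch was fitted alone, then both with batch as a term; a model of the 4 group means gave the interaction and the batch differences. SEs were taken as the absolute log2 fold change over the root of F. CPM uses TMM-scaled totals. Alternatives were DESeq2 1.42.0, limma-voom (limma 3.58.1) with sample quality weights, RLE and total-count scaling, other filters, each library left out, batch B libraries 1 and 2 left out, and the replicate number as a block. The code was tested on simulated data. ATAC-seq was not analysed here.

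The 10 genes and all lists were chosen with earlier results of these data known. Of each pathway list the text names at most 3 genes called higher and 3 called lower in both batches, by largest log2 fold change at a mean of at least 10 CPM, and up to 3 called in opposite directions; others named are marked as such.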

Additional observations from a re-analysis of the deposited data

Results flagged for a closer look

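For 4 of the 10 genes the difference between Sox2-positive and Sox2-negative cells itself differed between the batches, by the edgeR interaction on the log2 scale (batch B minus batch A): Spry4 at -2.33, Etv4 at -2.27, Etv1 at -1.21 and Spred1 at 1.27. The Etv1 and Spry4 terms were not called without batch B libraries 1 and 2.

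In 40 checks of 1 gene in 1 group, 2 libraries lay far from the rest of their group; chance marks about 1 in 20 such groups. Spred1 was lowest in batch B Sox2-positive library 4, at 171 CPM. Spred2 was highest in batch A Sox2-negative library 5, at 46.6 CPM.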

How the results depend on the processing

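Over the 6 comparisons, 1113 of 1150 values of the 10 genes with 1 library left out, and 458 of 490 under the other alternatives, kept both their direction and their side of the threshold. Without batch B libraries 1 and 2, the number of the 10 genes called fell from 4 to 2 for the interaction and from 2 to 0 for Sox2-negative cells between batches; over all genes the counts went from 1210 to 481, from 1924 to 754 and, for Sox2-positive cells between batches, from 1785 to 1159, with fewer libraries in each fit. For Sox2-negative cells between batches 1 of the 10 was called with limma-voom and 1 with total-count scaling, and between 0 and 2 with 1 library left out. Limma-voom called 3313 genes between batches in Sox2-positive cells, and added calls for Il17rd in the interaction (-1.45, adjusted p = 0.0287) and for Il17rd (-0.84, 0.00914) and Etv1 (-0.44, 0.000609) between batches in Sox2-positive cells; the cause was not tested. Total-count scaling moved the median of all genes by 0.12 in the comparison of both batches.

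Log2 values that changed sign were never called under either setting. In batch A, Spry1 was 0.029 with total-count scaling, 0.003 with no filter and -0.200 to 0.138 with 1 library left out, and Il17rd -0.017 to 0.543. In batch B, Etv4 was 0.083 without libraries 1 and 2. The interaction of Spry1 ran from -0.314 to 0.016 and that of Etv5 from -0.254 to 0.053 with 1 library left out, and that of Spry2 was 0.013 with limma-voom. Between batches in Sox2-negative cells, Il17rd ran from -0.043 to 0.532 and was -0.163 without libraries 1 and 2, and Etv5 ran from -0.298 to 0.009 and was 0.056 with limma-voom.

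Libraries carry numbers within their group in the labels. Deviations of same-numbered libraries from their group means correlated between -0.021 and 0.044, and 6 of 20 correlated best with their own number. The 20 checks were between populations of a batch and between batches of a population. Batches had different mice per the labels, so checks between batches cannot be of pairs, and most of the 6 were among these. The highest values, 0.040 and 0.044, were those of batch B numbers 1 and 2 between populations. Low correlations over all genes cannot exclude a pairing within a batch, so whether the numbers pair the populations there is not known. The main fits used no pairs. With the number as a replicate block, 557 genes were called for the interaction, where Spry2 was 0.019. In batch B Spred2 (edgeR adjusted p = 0.0858) and Il17rd (0.102), over both batches Etv4 (0.08) and in the interaction Etv1 (0.0665) were then not called. For the differences between batches, the block joined same-numbered libraries of different mice. With it, in Sox2-negative cells, Etv4 was not called (edgeR adjusted p = 0.0634), Spry2 was (0.0442) and the log2 difference of Etv5 was 0.178. Depth limits the low genes: Spry4 in batch B Sox2-positive cells lay between 1.82 and 6.48 CPM, against a floor of 3 counts of up to 1.30 CPM.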
